A study of Mus musculus with 4 samples.

Results

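Popliteal lymph nodes (PLNs), which drain the ankle and hindpaw, are embedded in fat, and a section through them can carry adipocytes at its rim. The spots rich in adipocyte transcripts were picked from 4 Visium capture areas. Visium lays a section on an array of barcoded positions, the spots, and counts each captured transcript once by its molecular identifier (UMI). Several cells, often of different types, share a spot. For every spot with at least 500 UMIs, the UMIs of Adipoq, Plin1, Car3, Cfd, Cidec and Lpl were summed and divided by all UMIs of the spot. The top 10% of each area on this score, 270 of 2681 spots, are called adipocyte-gene spots here, and the remaining 2411 spots are the other spots. A further 3438 of the 6119 spots under tissue held fewer than 500 UMIs and were left out.

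The WT area held 10 PLNs of 5 wild-type mice aged 5.5 months, the Early area 6 PLNs of 3 TNF-Tg mice aged 5.5 months, and the Advanced 1 and Advanced 2 areas 6 PLNs of 3 TNF-Tg mice each, aged 8.5 to 9 months. The TNF-Tg mice were of a line with 1 copy of a tumor necrosis factor transgene that develops inflammatory-erosive arthritis, and Early and Advanced name its stage. All mice were male C57BL/6 mice that had received Evan's blue dye in the hindpaw so that the PLNs could be found. Each area was a single section in which the PLNs of several mice were pooled, no WT area of the Advanced age was analysed, and age and arthritis stage cannot be told apart between Early and Advanced. The adipocyte-gene spots numbered 36 on the WT area, 71 on Early, 81 on Advanced 1 and 82 on Advanced 2, and held 129627, 689270, 392495 and 453973 UMIs in all. Their median depth was 2646, 6497, 1895 and 4746.5 UMIs per spot, against 2473, 3914, 2118 and 1958 UMIs in the other spots. The adipocyte-gene spots were thus the deeper ones on WT, Early and Advanced 2 and the shallower ones on Advanced 1, and the part of depth in the differences below was not tested, although each spot was also thinned to a fixed depth as an alternative. Mouse Tnf had 0 UMIs in the adipocyte-gene spots of WT, 11 on Early, 7 on Advanced 1 and 1 on Advanced 2.

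White adipocytes store triglyceride in a single large droplet coated with perilipins. They take up fatty acids that lipoprotein lipase (Lpl) frees from circulating lipoproteins, make others from glucose through acetyl-CoA carboxylase, fatty acid synthase and stearoyl-CoA desaturase, and release fatty acids again through adipose triglyceride lipase and hormone-sensitive lipase. They also secrete adipokines, among them adiponectin (Adipoq), adipsin (Cfd), leptin and resistin. Fat around lymph nodes lies outside the capsule, next to the subcapsular sinus.

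The spots were chosen by these 6 genes, so the values of the 6 describe the choice and were not tested. The score genes took 66.0 of every 10000 UMIs in the adipocyte-gene spots of WT (95% exact Poisson interval 61.7 to 70.6, which covers counting error only), 21.9 on Early (20.8 to 23.0), 50.8 on Advanced 1 (48.6 to 53.1) and 51.5 on Advanced 2 (49.5 to 53.7). Cfd, the complement protease that fat secretes, made up 53.7% of these UMIs, and took 39.2, 11.2, 28.2 and 26.7 of every 10000 UMIs against 0.934, 0.214, 0.353 and 0.306 in the other spots of the same areas. Adipoq took 3.47, 1.22, 2.47 and 2.56 of every 10000 UMIs. Early stood apart with the lowest share of score genes, less than on any other area, and this is given again beside each comparison of conditions.

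The score fell off steeply within each area. Its highest value was 2.93% of a spot's UMIs on WT, 1.89% on Early, 3.49% on Advanced 1 and 4.04% on Advanced 2, while the median adipocyte-gene spot was at 0.256%, 0.112%, 0.131% and 0.159%. The last spot inside the top 10% and the first outside it were at 0.152% and 0.147% on WT, 0.0418% and 0.0415% on Early, 0.0613% and 0.0613% on Advanced 1, and 0.0607% and 0.0605% on Advanced 2. No gap divided the spots at the threshold, and 81 of the 270 adipocyte-gene spots had a single UMI of the 6 genes. Only 46 spots, 10 on WT, 7 on Early, 13 on Advanced 1 and 16 on Advanced 2, reached a score of 0.5%, and these 46 held 68.2% of all score UMIs of the adipocyte-gene spots. Early was again the exception, since its 7 such spots held 46.6% of its score UMIs, against 72.9%, 77.6% and 72.3% on WT, Advanced 1 and Advanced 2. In the remaining 224 spots the score genes made up 0.163% of all UMIs, against 1.28% in the 46, and the 270 spots are therefore named by the genes that chose them and not as perinodal fat.

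**Figure D1:**
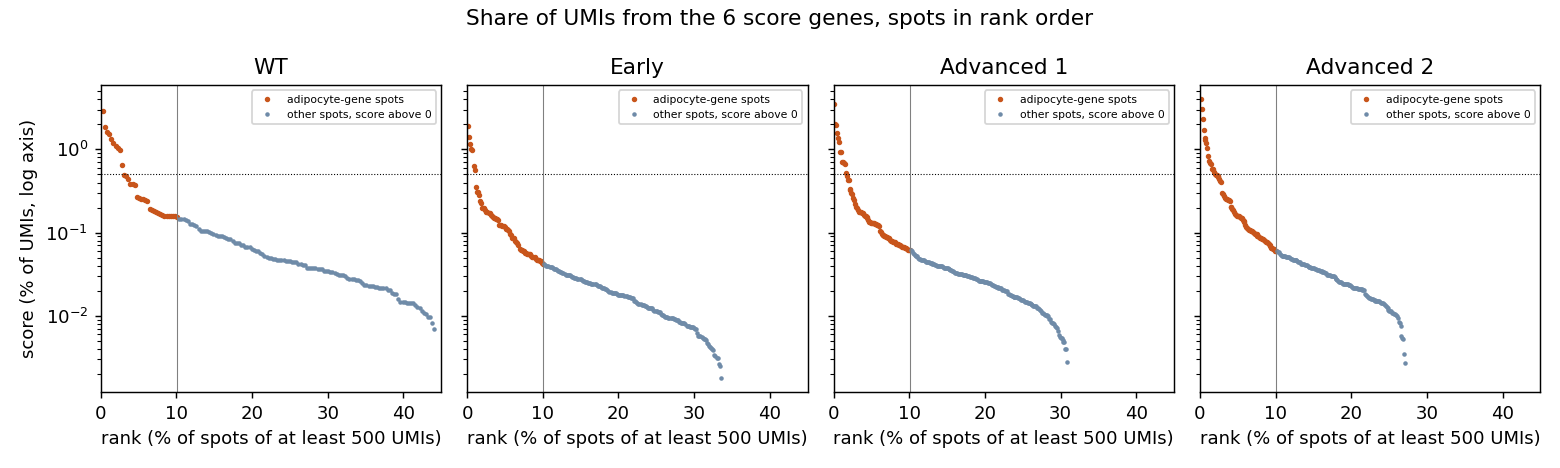
The score of each spot with at least 500 UMIs (percent of its UMIs from the 6 score genes, log axis) against its rank within its capture area, in percent of the spots, for spots with a score above 0. The vertical line marks the top 10% and the dotted line a score of 0.5%. The curves fall from 2.93%, 1.89%, 3.49% and 4.04% to thresholds between 0.0418% and 0.152% with no step at the threshold.

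Among genes outside the score with at least 100 UMIs, those with the largest rise in the adipocyte-gene spots were Cyp2e1 (a cytochrome P450), Pck1 (the cytosolic phosphoenolpyruvate carboxykinase, which in fat supplies glycerol phosphate for triglycerides) and Retn (resistin). Their promoters are shown because they had the largest differences between the spots, and that of Thrsp, a regulator of fatty acid synthesis, because it was also among the 12 genes with the largest rise from Early to Advanced. The sequences are from RefSeq, build GRCm38.p6, run 5′ to 3′ on the strand of the gene over the 250 bases before the annotated start and the 50 bases from it on, and lie at chr7:140763569-140763868 (+ strand, Cyp2e1), chr2:173152823-173153122 (+ strand, Pck1), chr8:3655520-3655819 (+ strand, Retn) and chr7:97417501-97417800 (− strand, Thrsp). Capitals mark a TATA box in Cyp2e1 and the letters TTGCNNCAA, with N for any base, in Thrsp.
Cyp2e1: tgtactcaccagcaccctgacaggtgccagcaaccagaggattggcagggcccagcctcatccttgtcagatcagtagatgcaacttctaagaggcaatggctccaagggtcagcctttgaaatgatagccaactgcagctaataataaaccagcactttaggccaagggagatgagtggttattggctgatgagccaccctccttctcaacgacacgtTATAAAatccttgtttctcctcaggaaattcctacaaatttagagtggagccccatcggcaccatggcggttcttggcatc
Pck1: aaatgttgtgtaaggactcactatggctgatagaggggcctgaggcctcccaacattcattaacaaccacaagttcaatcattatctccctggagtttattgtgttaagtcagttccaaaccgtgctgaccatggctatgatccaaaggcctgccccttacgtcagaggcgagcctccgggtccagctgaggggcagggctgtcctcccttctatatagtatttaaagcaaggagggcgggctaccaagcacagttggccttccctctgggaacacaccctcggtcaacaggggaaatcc
Retn: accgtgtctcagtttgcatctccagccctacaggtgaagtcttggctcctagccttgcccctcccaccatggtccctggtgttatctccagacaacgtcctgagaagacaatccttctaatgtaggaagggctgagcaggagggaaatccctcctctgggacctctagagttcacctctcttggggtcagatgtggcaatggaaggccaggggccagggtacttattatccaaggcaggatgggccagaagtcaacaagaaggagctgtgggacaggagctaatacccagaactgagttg
Thrsp: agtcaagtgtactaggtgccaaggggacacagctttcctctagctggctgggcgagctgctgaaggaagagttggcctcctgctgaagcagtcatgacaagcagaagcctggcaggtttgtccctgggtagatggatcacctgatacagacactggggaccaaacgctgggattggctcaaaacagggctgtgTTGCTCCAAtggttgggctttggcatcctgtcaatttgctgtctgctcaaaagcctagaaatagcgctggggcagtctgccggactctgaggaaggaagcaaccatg

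Exact letters of 4 motifs were searched in these windows. AGGTCA (bound by nuclear receptors), TTGCNNCAA and CACGTG (an E-box) were searched on both strands, and TATAAA on the strand of the gene. TTGCNNCAA is given as letters only and is not taken as the binding site of a named factor. TATAAA began at base -31 of Cyp2e1, counted from the annotated start, and TTGCNNCAA at base -57 of Thrsp. No other match lay in the 4 windows, which says only that these letters are not there. Of the 495 genes higher in adipocyte-gene spots, 370 had promoters in the table. TTGCNNCAA was in 2.81% of their 463 promoters, in 1.53% of the 11292 promoters of all genes tested and in 2.08% of all 32851 promoters of the same length. The shares for TATAAA were 7.78%, 4.45% and 8.32%, those for AGGTCA 12.1%, 12.4% and 16.3%, and those for CACGTG 8.42%, 10.1% and 7.15%. These shares are descriptions with no test.

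The adipocyte-gene spots lay alone or in small patches. Neighbouring spots can share diffused RNA, so the shares of neighbours below are a description with no test. On average 35.6% ± 8.52 of the neighbours of an adipocyte-gene spot with at least 500 UMIs were adipocyte-gene spots themselves (SD, n = 4 areas), 34.9% on WT, 33.7% on Early, 26.7% on Advanced 1 and 47.2% on Advanced 2, where the other spots had 6.76%, 7.42%, 8.10% and 5.29%. The 270 spots formed 20, 39, 49 and 45 patches, of which 16, 28, 41 and 31 were single spots and the largest had 14, 9, 9 and 11 spots. A spot was called an edge spot if any of its 6 neighbouring positions held no tissue, and 58.3% of the adipocyte-gene spots were edge spots on WT, 67.6% on Early, 35.8% on Advanced 1 and 70.7% on Advanced 2. Among the other spots the shares were 61.6%, 56.6%, 27.7% and 36.0%. The share was higher in 3 of the 4 areas and lower on WT, and the mean difference of 12.6 percentage points ± 15.9 (SD, n = 4 areas) was within the spread between areas (exact paired permutation test, two-sided p = 0.25, where 0.125 is the smallest p that 4 areas allow). Without Advanced 2 the mean difference was 5.29 points. Of the 46 spots of at least 0.5%, 41 were edge spots (89.1%, exact binomial interval 76.4 to 96.4, for counting error only). By area these were 7 of 10 on WT, 7 of 7 on Early, 11 of 13 on Advanced 1 and 16 of 16 on Advanced 2. The WT share was thus 70%, beside 61.6% of the other spots there. Of the 6119 spots under tissue, 3438 held fewer than 500 UMIs, and whether they lay inside the PLNs was not examined. The deeper spots compared here were edge spots and spots inside the tissue on all 4 areas.

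**Figure D2:**
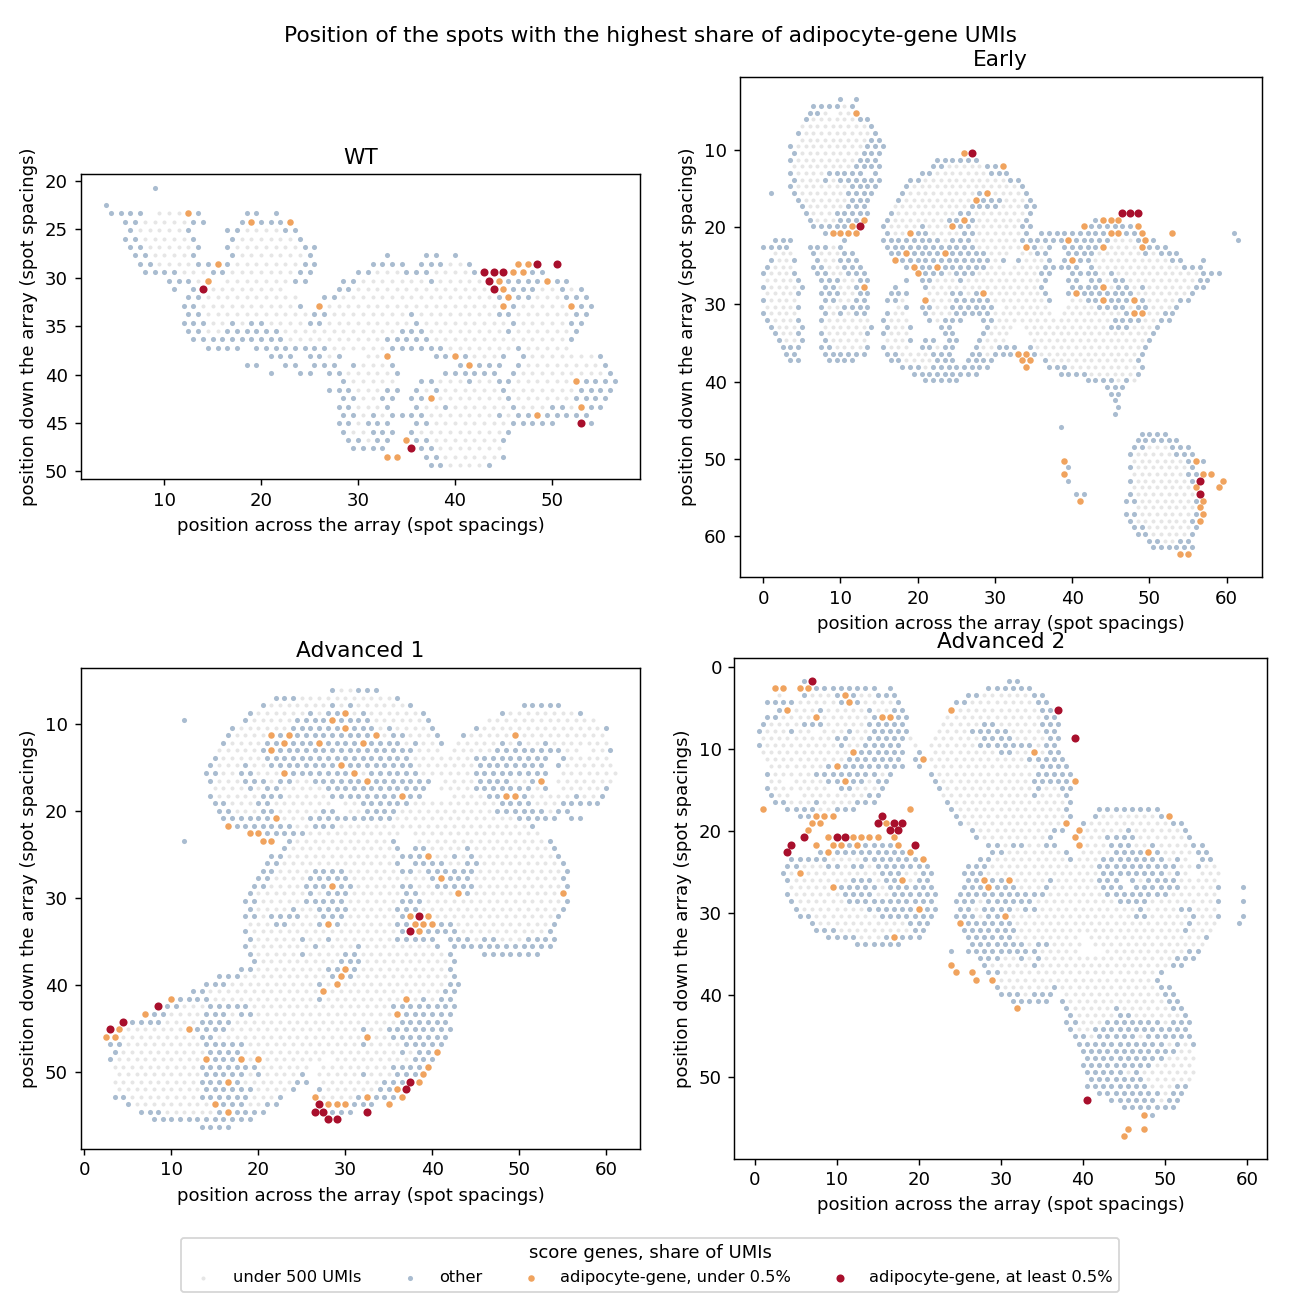
Positions of the spots on each capture area, in spot spacings across and down the array, with adipocyte-gene spots of at least 0.5% score UMIs in red, the remaining adipocyte-gene spots in orange, other spots in blue and spots under 500 UMIs in grey. Of the 46 spots of at least 0.5%, 41 sit at a tissue edge, and 7 of 10 do on WT. The remaining adipocyte-gene spots lie alone or beside others, and on average 25.6% of their neighbours are such spots too.

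UMIs were then summed over the adipocyte-gene spots and over the other spots of each area, and the 8 sums were compared with the area as a block in edgeR's quasi-likelihood test. The 6 score genes were left out of the test. The genes tested were measured in the same spots as the score, so a difference says which transcripts accompanied it. The adipocyte-gene spots had 495 of 11109 genes higher, or 4.46%, and 279 lower, or 2.51%, at an adjusted p below 0.05. Scaled by total UMIs alone, which moved the median of all genes from -0.01 to -0.13, the split was 367 higher and 651 lower, while the 6 adipocyte lists below had 33 of 57 genes higher and none lower. The 12 genes that led the higher ones also passed in every alternative in which they were tested, except that Ces1d missed it where each spot was thinned to 500 UMIs before summing, an alternative that left 4 of the 12 with enough UMIs.

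Cyp2e1 (ENSMUSG00000025479, chromosome 7 from 140763739 to 140774987 of GRCm38) took 5.32 of every 10000 UMIs in the adipocyte-gene spots of WT, 1.38 on Early, 1.89 on Advanced 1 and 3.99 on Advanced 2, and between 0.0387 and 0.0928 in the other spots. It was higher in all 4 areas by 5.80 ± 0.20 on the log2 scale (SE, edgeR adjusted p = 2.32e-30). Retn (ENSMUSG00000012705, chromosome 8 from 3655770 to 3660110) took 2.70, 0.929, 4.03 and 4.45 of every 10000 UMIs, against 0.0928, 0.0364, 0.0463 and 0.0812 in the other spots (5.64 ± 0.20, edgeR adjusted p = 9.72e-30). The levels of the 2 classes did not overlap for either gene. Both genes are given because their rise was among the largest, so this describes the choice. Neither was in the score. At least 1 Retn UMI was found in 36.1% of the adipocyte-gene spots of WT, 31.0% on Early, 33.3% on Advanced 1 and 40.2% on Advanced 2, and in 4.38%, 1.89%, 1.66% and 2.73% of the other spots.

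Genes of fatty acid and triglyceride synthesis moved together. Of 16 such genes tested, 11 were higher and none was lower, with a median log2 difference of 1.76, where the median over all 11109 genes was -0.01. Pck1 (ENSMUSG00000027513, chromosome 2 from 173153048 to 173159273) took 1.16, 0.624, 0.790 and 1.23 of every 10000 UMIs on WT, Early, Advanced 1 and Advanced 2 and at most 0.0348 in the other spots (5.72 ± 0.33, edgeR adjusted p = 1.67e-20). Thrsp took 1.16, 0.421, 1.86 and 2.56, against 0.0410 to 0.0866 in the other spots (4.65 ± 0.24, edgeR adjusted p = 6.09e-22). Scd1, the stearoyl-CoA desaturase that makes monounsaturated fatty acids, was the most abundant gene of the list, with 11.3, 7.81, 21.4 and 21.7 of every 10000 UMIs against 2.15 to 3.66. It rose by 2.32 ± 0.15 (edgeR adjusted p = 1.69e-18), and Fasn, the fatty acid synthase, by 2.27 ± 0.17 from 0.496 to 0.781 in the other spots to 1.70, 1.16, 4.76 and 4.52. Genes of triglyceride assembly were higher as well, with Gpd1, which makes the glycerol phosphate backbone, at 4.43 ± 0.30 and Dgat2, which adds the final acyl chain, at 3.55 ± 0.22 on the log2 scale. Acaca, the acetyl-CoA carboxylase, rose by 1.71 ± 0.25, whereas the elongase Elovl6 did not pass (0.77 ± 0.43, edgeR adjusted p = 0.341).

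Uptake and storage genes followed. Of 8 genes of fatty acid uptake and binding, 7 were higher (median log2 difference 2.01). Fabp4, the fatty acid carrier of adipocytes that capillary endothelium also makes, took 25.4, 11.01, 20.3 and 31.6 of every 10000 UMIs against 3.23, 2.27, 3.11 and 4.48 (2.80 ± 0.12, edgeR adjusted p = 3.92e-26). The fatty acid translocase Cd36 rose by 2.33 ± 0.15, the acyl-CoA synthetase Acsl1 by 2.39 ± 0.21 and caveolin Cav1 by 2.18 ± 0.19. Of 10 genes of the lipid droplet and lipolysis, 6 were higher (median 1.54). Plin4, a perilipin of white adipocytes, took 2.16, 0.914, 0.713 and 1.65 of every 10000 UMIs against at most 0.0928 (4.69 ± 0.23, edgeR adjusted p = 3.81e-23). Hormone-sensitive lipase (Lipe) rose by 2.38 ± 0.18, adipose triglyceride lipase (Pnpla2) by 1.64 ± 0.15 and its inhibitor G0s2 by 2.48 ± 0.29. Plin2, the perilipin of most other cells with lipid droplets, differed by 0.29 and did not pass.

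Secreted and regulatory genes were measured at lower levels. Of 8 adipokines and secreted factors tested, 5 were higher (median 3.26). Besides Retn these included leptin (Lep, 5.95 ± 0.79), which rested on 29 UMIs in the adipocyte-gene spots, and the retinol carrier Rbp4 (5.10 ± 0.54), which rested on 51. Of 8 adipocyte transcription factors, 3 were higher (median 0.36), with Pparg, the receptor that drives adipocyte differentiation, at 1.95 ± 0.40 on 39 UMIs and Cebpa at 1.13 ± 0.16. Of 7 genes of insulin and adrenergic signalling, 3 were higher (median 0.77), among them the insulin-responsive glucose transporter Slc2a4 (2.74 ± 0.58) and the adrenergic receptor of fat, Adrb3 (5.02 ± 0.81, 23 UMIs). Over these 6 adipocyte lists, 35 of 57 genes tested were higher, or 61.4%, and none was lower. Leaving out 1 area at a time, the count was 35 of 57 without WT, 31 of 56 without Early, 34 of 57 without Advanced 1 and 29 of 54 without Advanced 2. In the fit of edge spots only it was 34 of 57, in DESeq2 31 of 57, and with each spot thinned to 500 UMIs 6 of the 24 that could still be tested. Fatty acid oxidation genes had 2 of 11 higher (median 0.36).

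**Figure D3:**
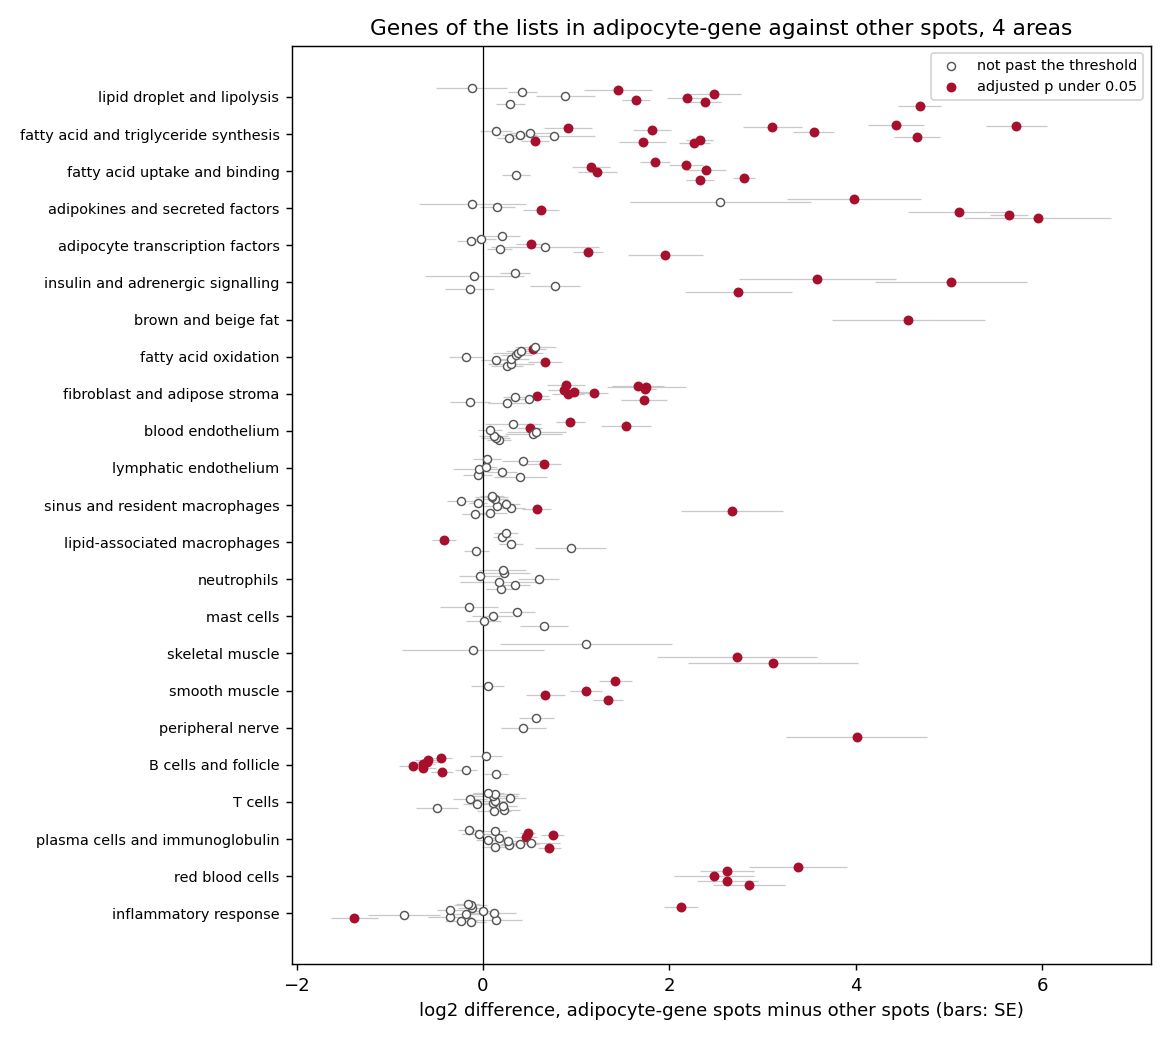
Log2 differences of the genes of each list between adipocyte-gene and other spots (1 point per gene tested, filled where the edgeR adjusted p was below 0.05, with bars for the SE). The 6 adipocyte lists at the top have 35 of 57 genes higher and none lower, and the B cell list has 7 of 10 lower.

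Brown and beige fat markers were nearly absent. Ucp1, the uncoupling protein that defines brown fat, had 0 UMIs in the adipocyte-gene spots, and of 11 markers only Cox8b, a cytochrome oxidase subunit, could be tested. It was higher (4.56 ± 0.82) on 23 UMIs, of which 14 were on Advanced 1 and 8 on Advanced 2. Without Advanced 1, without Advanced 2 or without the area as a block, no gene of that list could be tested. Genes encoded by the mitochondrial genome, a group chosen after the values were seen, were higher for 11 of 12 tested, by 1.02 to 1.99 over all 12 and by 1.41 in the median. Mt-Co1 took 37.9, 35.4, 37.3 and 32.9 of every 10000 UMIs, against 19.8, 24.3, 17.7 and 15.4.

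Fabp4 was higher in the spots of at least 0.5% than in the remaining ones on all 4 areas. It took 49.3, 52.1, 45.8 and 65.0 of every 10000 UMIs in them and 11.7, 7.10, 8.48 and 18.8 in the remaining adipocyte-gene spots. Retn took 5.07, 4.01, 10.3 and 10.5 in them, and Scd1 19.5, 28.4, 47.0 and 47.4. In these spots Early was no longer the lowest for Fabp4, Scd1 or Lipe, where it had 52.1, 28.4 and 4.01 of every 10000 UMIs. Compared with the other spots, the 46 spots had 38 of 56 adipocyte-list genes higher (median 2.40), and the 224 spots below 0.5% had 21 of 53 higher (median 0.66). This division was added after the data were seen.

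**Figure D4:**
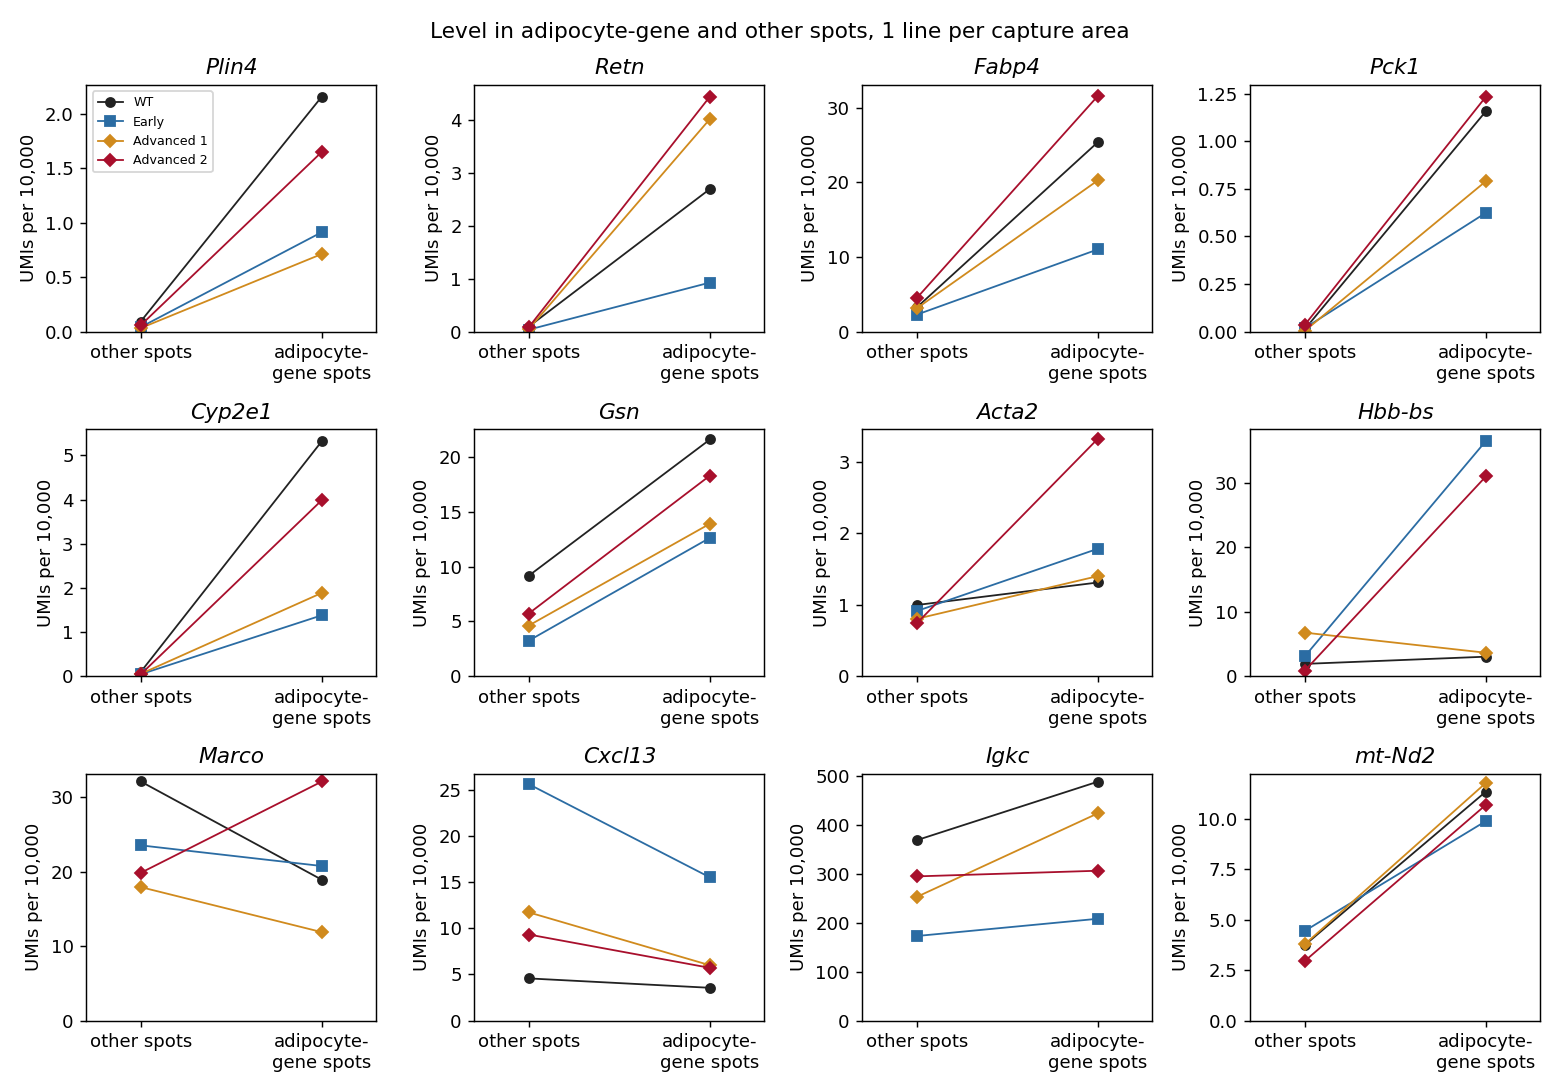
Levels of 12 genes in the other and the adipocyte-gene spots, in UMIs per 10000 UMIs, with 1 line per capture area and no error bars. Fabp4 goes from between 2.27 and 4.48 to between 11.01 and 31.6 and is higher in all 4 areas, whereas Marco is lower in 3 of them and Hbb-bs in 1.

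Fibroblast, smooth muscle and red blood cell genes were higher in the adipocyte-gene spots too. Of 14 genes of fibroblasts and adipose stroma, 10 were higher and none was lower (median 0.90). Gsn, gelsolin, took 21.6, 12.6, 13.9 and 18.3 of every 10000 UMIs against 9.16, 3.23, 4.61 and 5.71 (1.74 ± 0.12), and Pi16, a marker of adventitial fibroblasts, rose by 1.73 ± 0.24. Of 5 smooth muscle genes tested 4 were higher (median 1.104), with Acta2 at 1.34 ± 0.16. Of 10 blood endothelial genes 3 were higher, and of 8 lymphatic endothelial genes 1 was. Red blood cell genes were higher for 5 of 5, but not in every area. Their summed level was 8.10 of every 10000 UMIs in the adipocyte-gene spots against 3.501 in the other spots on WT, 72.1 against 6.23 on Early, 9.22 against 14.2 on Advanced 1 and 64.7 against 2.09 on Advanced 2. The direction was thus opposite on Advanced 1, and with robust estimation or in DESeq2 only 1 of the 5 passed. The part of these other tissues in the levels of the adipocyte-gene spots was not tested.

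Among the leukocyte lists, B cell genes were lower and few macrophage genes passed. Of 12 genes of sinus and resident macrophages, 2 were higher, Mrc1 by 0.58 ± 0.16 and Cd163 by 2.67 ± 0.55 on 29 UMIs. Marco, the scavenger receptor of sinus macrophages, took 18.9, 20.7, 11.9 and 32.1 of every 10000 UMIs against 32.1, 23.5, 17.9 and 19.8, lower in 3 of 4 areas and higher on Advanced 2, and did not pass (-0.09 ± 0.13, edgeR adjusted p = 0.788). Of 6 genes of lipid-associated macrophages none was higher, and Cd63 was lower by 0.42 on the log2 scale. B cell and follicle genes were lower for 7 of 10 and higher for none (median -0.52). Cxcl13, the follicle chemokine, took 3.55, 15.5, 5.99 and 5.71 of every 10000 UMIs against 4.56, 25.6, 11.7 and 9.31 (-0.60 ± 0.12, edgeR adjusted p = 0.000258). The B cell count was 3 of 10 without Early and 0 with the score taken after thinning. None of 12 T cell genes, 7 neutrophil genes and 5 mast cell genes passed. Of 4 skeletal muscle genes 2 were higher, and none was in edge spots only. Without Advanced 1 or without Advanced 2 no gene of that list could be tested. The summed level of that list was 0.154, 0.0580, 1.503 and 0.352 of every 10000 UMIs against 0.0990, 0.118, 0.146 and 0.530, and thus lower in the adipocyte-gene spots of Early and Advanced 2. Of 14 plasma cell and immunoglobulin genes 4 were higher, among them Igkc (488, 208, 423 and 306 against 368, 173, 252 and 294, a log2 difference of 0.48 ± 0.08) and Jchain (0.71 ± 0.12). In the spots of at least 0.5% none of the 14 was higher and 1 was lower (median -0.12), while 5 were higher in those below 0.5%. Without the area as a block none passed. The summed level of that list was lower in the adipocyte-gene spots on Advanced 2 (743 against 820 of every 10000 UMIs) and higher on the other areas. Of 14 inflammatory genes 1 was higher and 1 lower. The acute-phase protein haptoglobin (Hp), which fat also makes, was higher by 2.12 ± 0.18, with 8.02, 4.66, 4.03 and 2.82 of every 10000 UMIs against 0.520, 2.06, 1.22 and 0.801, and Ccl20 was lower by 1.38 ± 0.25 on the log2 scale. The 12 genes that led the lower ones, headed by the non-coding RNA Dancr (-2.23 ± 0.49), were all at 1.32 or fewer of every 10000 UMIs in either class, and 3 of the 12 passed in DESeq2.

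The adipocyte-gene spots were next compared between the conditions. WT and Early were each 1 area, so that the only replicates were the 2 Advanced areas, the test had 1 residual degree of freedom, and edgeR set the spread of every gene to the trend over all genes. The p-values thus set each difference between conditions against that trend, and do not measure the spread between animals. A gene's own difference between the 2 Advanced areas entered its p-value only through the trend. The 3 comparisons share areas and are given side by side. Of 8300 genes tested, Advanced had 33 genes higher than Early (0.398%) and 40 lower (0.482%), 11 higher than WT (0.133%) and 10 lower (0.12%), and Early had 22 higher than WT (0.265%) and 14 lower (0.169%). Scaled by total UMIs alone, Advanced had 36 genes higher than Early and 22 lower. DESeq2 called 0, 1 and 2 genes in these comparisons, with 32, 33 and 42 genes at an unadjusted p below 0.05, where edgeR had 438, 554 and 638. Each value below is set beside the score genes, which took 66.0, 21.9, 50.8 and 51.5 of every 10000 UMIs and were 2.34 times higher in Advanced than in Early.

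Of 16 fat synthesis genes tested, 5 were higher in Advanced than in Early and 11 did not pass (median 0.71). None passed in the spots of at least 0.5%, in those below 0.5% or in DESeq2. Scd1 had 11.3 of every 10000 UMIs on WT, 7.81 on Early, 21.4 on Advanced 1 and 21.7 on Advanced 2, with both Advanced areas above the others (Advanced minus Early 1.40 ± 0.22 on the log2 scale, edgeR adjusted p = 1.69e-07). Fasn had 1.70, 1.16, 4.76 and 4.52 (1.93 ± 0.33, edgeR adjusted p = 3.17e-06). Thrsp had 1.16, 0.421, 1.86 and 2.56 (2.32 ± 0.40, edgeR adjusted p = 2.67e-06). The order of the areas was the same for Scd1, Fasn, Thrsp and Retn, with Early lowest, WT next and both Advanced areas above. Retn had 2.70, 0.929, 4.03 and 4.45 (2.12 ± 0.34, edgeR adjusted p = 3.94e-07). Of 8 uptake genes 3 were higher (median 0.83), of 5 adipokines 1, which was Retn, and of 9 lipid droplet genes none (median 0.37), where the median over all genes was 0.02. Over the 6 adipocyte lists the count was 9 of 50, and it was 0 of 38 in the spots of at least 0.5%, 0 of 44 in those below and 6 of 47 in edge spots only.

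Divided by the score genes instead of by all UMIs, the differences between Advanced and Early were smaller. For Scd1, Fasn, Retn and Thrsp those between Advanced and WT were larger. For each gene given here, Early was below WT per 10000 UMIs and above it in this ratio. The score genes are the ones that chose the spots, so these ratios are a description with no test. The score genes were 2.34 times higher in Advanced than in Early. The division therefore lowers the Advanced to Early ratio of any gene by about that factor, of adipocytes or not. The part of the share of adipocyte transcripts in these differences was not tested. Scd1 had 17.1 UMIs per 100 score UMIs on WT, 35.7 on Early, 42.1 on Advanced 1 and 42.1 on Advanced 2, so that the Advanced mean was 1.18 times Early where it had been 2.76 times per 10000 UMIs. Fabp4 had 38.4, 50.3, 39.9 and 61.3, or 1.01 times against 2.35 times. Fasn had 2.57, 5.30, 9.38 and 8.76 (1.71 times against 4.00 times), Retn 4.09, 4.24, 7.93 and 8.64 (1.95 against 4.56 times) and Thrsp 1.75, 1.92, 3.66 and 4.96 (2.24 against 5.25 times).

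Neutrophil genes were higher in Advanced than in Early for 5 of 6 tested (median 2.56). With the score taken after thinning 1 of 6 passed (median 0.76), and none passed in the spots of at least 0.5% or in DESeq2. S100a8 (chromosome 3 from 90668978 to 90670035) took 1.85 of every 10000 UMIs on WT, 0.711 on Early, 4.71 on Advanced 1 and 2.93 on Advanced 2 (2.35 ± 0.36, edgeR adjusted p = 3.66e-08). Its partner S100a9 took 2.08, 1.04, 5.68 and 3.99 (2.14 ± 0.34, edgeR adjusted p = 1.84e-07), and the granule peptide Camp rose by 4.22 ± 0.58 from 3, 4, 62 and 37 UMIs. Ighg2b, the constant region of IgG2b, took 192, 37.6, 164 and 150 of every 10000 UMIs (1.99 ± 0.10, edgeR adjusted p = 2.09e-91), and 184, 40.7, 94.6 and 209 in the other spots. The low Early value of Ighg2b was thus present in both classes of spots. Of 14 plasma cell and immunoglobulin genes, 7 were higher in Advanced than in Early. IgG constant regions are similar in sequence, and reads could have been divided between them in counting. The blood vessel gene Vwf (0.463, 0.145, 0.510 and 2.45) and the macrophage gene Cd5l (2.01, 0.624, 0.841 and 4.36) passed through Advanced 2, without which the log2 differences were 1.72 and 0.36.

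The genes lower in Advanced than in Early included 3 of 14 stromal genes and 2 of 13 inflammatory genes tested, and most genes of both lists did not pass. The acute-phase gene Saa3 took 0.309 of every 10000 UMIs on WT, 5.25 on Early, 1.17 on Advanced 1 and 1.08 on Advanced 2 (-2.28 ± 0.31, edgeR adjusted p = 2.7e-10). Cxcl13 took 3.55, 15.5, 5.99 and 5.71 (-1.47 ± 0.24, edgeR adjusted p = 8.18e-07). Both were highest on Early in the other spots too. Collagen Col3a1 took 1.08, 3.47, 1.45 and 0.903 (-1.63 ± 0.32), against 1.26, 1.25, 1.38 and 0.495 in the other spots, and Col1a2 (-1.32) and Col1a1 (-1.06) were lower as well. The ribosomal protein genes Rpl35 (6.09, 14.01, 6.47 and 6.26 of every 10000 UMIs, -1.20 ± 0.24) and Rps27 (-1.11 ± 0.15) and the lysozyme Lyz1 (-1.17 ± 0.27) were also among the lower genes. Red blood cell genes were lower for 2 of 5, but Hba-a1 had 1.93, 16.6, 1.40 and 13.9 of every 10000 UMIs and divided the 2 Advanced areas from each other.

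Against WT, 1 of 50 genes on the adipocyte lists passed in Advanced. The median log2 difference was 0.37 for the 16 synthesis genes, -0.05 for the 8 uptake genes and -0.61 for the 9 lipid droplet genes. Scd1 was higher (0.86 ± 0.22, edgeR adjusted p = 0.038) and was the gene that passed. Nnat, neuronatin, an imprinted gene active in fat, fell by 2.54 ± 0.45 on the log2 scale (2.39, 0.856, 0.611 and 0.264 of every 10000 UMIs). The lower genes with the largest differences were Slpi, a protease inhibitor (48.6, 1.81, 4.23 and 1.498, a difference of -4.17 ± 0.22), and Ighg1 (86.0, 7.78, 8.46 and 19.6, -2.68 ± 0.16), which were also high on WT in the other spots, at 60.3 and 85.0. Pf4, a platelet chemokine, had 0 of 129627 UMIs on WT, and against the limit that a count of 0 allows there (3 UMIs in the area) it was at least 3.13-fold higher on Early, 1.98-fold on Advanced 1 and 4.09-fold on Advanced 2. Between Early and WT, Fabp4 (-1.21 ± 0.22, edgeR adjusted p = 1.31e-05) and G0s2 (-2.28 ± 0.54, edgeR adjusted p = 0.0105) were lower on Early, the 2 of 50 adipocyte-list genes that passed, and Cyp2e1 was lower by 1.95 on the log2 scale. Saa3 (4.07 ± 0.58), Cxcl13 (2.12), the macrophage lysozyme Lyz2 (1.45 ± 0.18) and the hemoglobin genes were higher on Early. In the spots of at least 0.5% the Fabp4 difference was 0.06. The part of the lower score of the Early spots in these values was not tested.

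**Figure D5:**
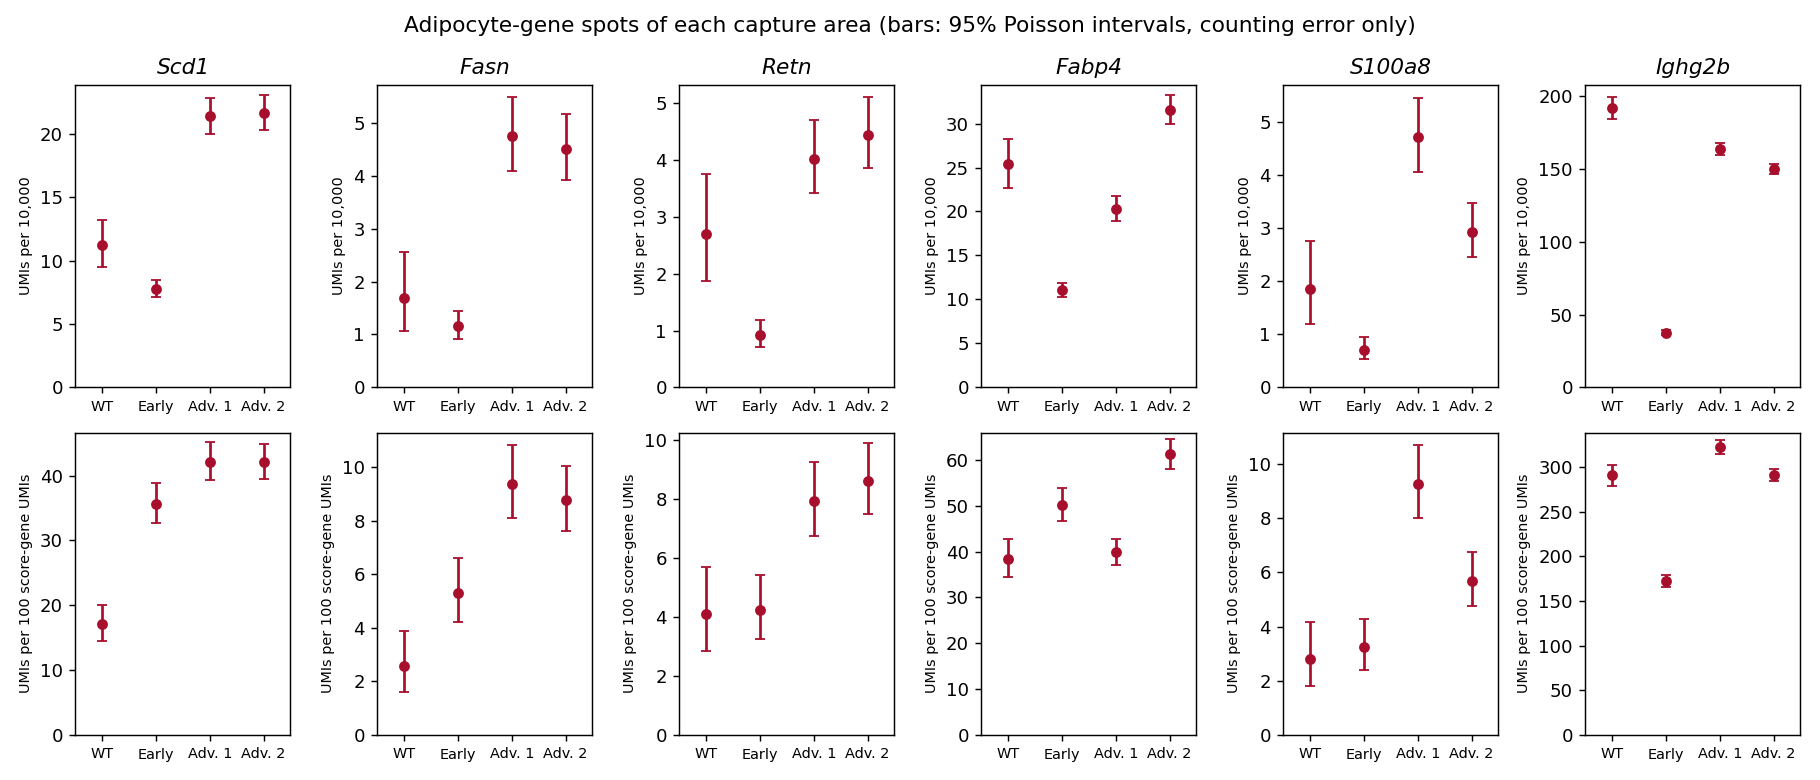
Levels of 6 genes in the adipocyte-gene spots of each capture area, per 10000 UMIs (top) and per 100 UMIs of the score genes (bottom), with 95% exact Poisson intervals for counting error. Scd1, Fasn and Retn are lowest on Early in the top row and highest on the 2 Advanced areas in both rows, and Fabp4 on Early lies between the Advanced areas in the bottom row, at 50.3.

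Whether the change between Early and Advanced differed between adipocyte-gene and other spots was tested by an interaction term over 11844 genes, which passed for 3 genes upward (0.0253%) and 1 downward (0.00844%). Scd1 had 3.51, 3.24 and 3.66 of every 10000 UMIs in the other spots of Early, Advanced 1 and Advanced 2, so that its rise in the adipocyte-gene spots exceeded that of the other spots by 1.49 ± 0.28 on the log2 scale (edgeR adjusted p = 0.0032). S100a8 (1.82 ± 0.34, edgeR adjusted p = 0.0032) and S100a9 (1.52 ± 0.33, edgeR adjusted p = 0.0445) also rose more in the adipocyte-gene spots, and Ighg1 less (-1.32 ± 0.25, edgeR adjusted p = 0.0032). With the score taken after thinning, the interactions of S100a8 and S100a9 were -0.03 and -0.08. Fasn missed the threshold (1.46 ± 0.33, edgeR adjusted p = 0.0518). The test had 1 residual degree of freedom, and no gene passed in DESeq2, where 7 genes had an unadjusted p below 0.05, or in edgeR scaled by total UMIs, where 340 did.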

How the data were processed

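Per the labels and the submitters' processing notes, the authors made the counts with Space Ranger 1.1.0 (build mm10, GRCm38), as whole UMIs of each gene in each spot, and listed Seurat 4.0.3 and R 4.1.1. The deposited counts carry no normalization. Here a spot with at least 500 UMIs entered, and the members were the top 10% of each area by the 6 score genes. No doublet caller and no clustering was used. Of 3110 barcodes, 1798 occurred in more than 1 area, since barcodes mark positions.

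Counts were summed per area and class of spots and tested with edgeR 4.0.16 (glmQLFit and glmQLFTest, TMM scaling, filterByExpr, R 4.3.3) with Benjamini-Hochberg adjustment at 0.05. The comparison of classes had the area as a block, 3 residual degrees of freedom and a prior of 49.8, and the interaction 1 and 98.4. Cells or spots were not replicates. Alternatives were DESeq2 1.42.0, other scalings, filters, thresholds and scores, and leaving out each area. The scripts were tested on simulated data. The named genes were the 12 with the largest log2 difference in each direction among those past the threshold with at least 100 UMIs and the same sign in every area or in both Advanced areas (genes of predicted models not named). Others belong to 23 lists of 232 genes. The members and lists were chosen with earlier results of these data known. Gene positions are from GENCODE M21. Genes at a few UMIs per sum are imprecise, and intervals cover counting error only. No count test treats animals as replicates, because PLNs were pooled on each area and a table of spots per PLN was not used here.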

Additional observations from a re-analysis of the deposited data

Results flagged for a closer look

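In the adipocyte-gene spots the change from Early to Advanced differed from that in the other spots, by edgeR's interaction test, for 4 genes. The log2 difference of the changes was 1.49 for Scd1, 1.82 for S100a8 and 1.52 for S100a9, which rose more in the adipocyte-gene spots, and -1.32 for Ighg1, which rose less. In the adipocyte-gene spots Scd1 took 7.81 of every 10000 UMIs in Early, 21.4 in Advanced 1 and 21.7 in Advanced 2, and the score genes moved from 21.9 to 50.8 and 51.5. The part of the share of adipocyte transcripts in this difference was not tested. Ighg1 had 7.78, 8.46 and 19.6 in the adipocyte-gene spots and 4.48, 18.2 and 19.0 in the other spots, so that it was lower in the adipocyte-gene spots on Advanced 1 and higher on Advanced 2.

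The share of edge spots was lower in the adipocyte-gene spots than in the other spots on WT, by -3.23 percentage points, and higher on the 3 TNF-Tg areas. The difference between WT and the TNF-Tg areas was not tested.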

How the results depend on the processing

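The comparison of adipocyte-gene with other spots gave 774 genes. The count was 358 with the score taken after thinning to 500 UMIs, 469 with the spots of at least 0.5% alone, 423 with those below 0.5%, 36 of 2834 genes with each spot thinned to 500 UMIs before summing, 356 in DESeq2 and 194 with no replicate block (170 higher and 24 lower). Leaving out 1 area gave 344 to 772, the lowest without Early and 368 without Advanced 2. Over 24 named genes and their alternatives, 383 of 483 values kept direction and threshold, 97 kept direction only and 3 reversed, namely Zfp658 (0.10, top 20%) and, with the thinned score, Ccl20 (0.11) and Casp6 (0.24).

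Between conditions the counts depended on the spots and the tool. For Advanced against Early, 73 genes became 34 (top 5%), 38 (score of Adipoq, Plin1 and Cidec), 34 (edge spots), 1 (at least 0.5%), 13 (below 0.5%), 4 of 906 (thinned spots) and 0 (DESeq2). For Advanced against WT, 21 became 13 (top 5%), 73 (top 20%), 48 (3-gene score), 10 (edge spots), 0 (at least 0.5%, 82 at an unadjusted p below 0.05), 4 (below 0.5%), 3 (thinned spots), 1 (DESeq2) and 9 (robust estimation). For Early against WT, 36 became 22 (top 5%), 81 (top 20%), 57 (3-gene score), 2 (at least 0.5%), 10 (below 0.5%), 3 (thinned spots) and 2 (DESeq2). Without WT, Advanced against Early gave 73, and without Early, Advanced against WT gave 22. For the interaction, 4 became 7 (top 5%), 1 (top 20%), 8 (1 threshold for all areas), 12 (thinned score), 2 (3-gene score), 8 (edge spots) and 7 (DESeq2 size factors). It became 0 with the spots of at least 0.5% (edgeR, 370 at an unadjusted p below 0.05), thinned spots (edgeR, 155), total UMIs (edgeR, 340), DESeq2 (7) and bias-adjusted edgeR (315).

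Single genes reversed as follows on the log2 scale. For Advanced against Early these were Hba-a1 (0.26) and Hbb-bs (0.58) in the spots of at least 0.5% and Col1a1 (0.0948) with thinned spots. For Advanced against WT they were Igha (-0.72 for the top 20%, -0.56 with 1 threshold), Ighg2c (-0.0372, thinned spots) and Ighg2b (0.10, at least 0.5%). For Early against WT they were Ccl21a (0.63, thinned spots) and Fabp4 (0.16 with 1 threshold, 0.0564 at least 0.5%). In the interaction they were Ighg1 (0.12 with the 3-gene score, 0.16 at least 0.5%), S100a8 (-0.0255) and S100a9 (-0.0751), both with the thinned score. The cause was not tested. The share of neighbours, 35.6%, was 24.95% with the thinned score, 49.0% at least 0.5% and 25.6% below, and 31.8 to 38.6% leaving out 1 area, where the edge difference ranged from 5.29 to 17.9 points.

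The divisions at 0.5%, thinned spots, robust estimation and bias-adjusted edgeR were chosen after seeing the data. No paired analysis was possible between conditions because no mouse was in more than 1 condition. Leaving out an Advanced area leaves no residual degrees of freedom in the comparisons of conditions, so those are values with no test.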
